A study of Mus musculus with 8 samples.

Results

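The rows described here are the variable (V) segments of the immunoglobulin heavy chain locus (Ighv, chromosome 12) and of the kappa light chain locus (Igkv, chromosome 6). They were taken by name, as every row whose gene symbol starts with Ighv or Igkv followed by a digit. The rule gave 216 of the 37447 genes in the table, 113 Ighv and 103 Igkv. The libraries are RNA sequencing of flow-sorted microglia, the resident macrophages of nervous tissue, from the optic nerve of 3-month-old C57BL/6 mice. FFC mice carried Nf1 flox/flox with GFAP-Cre, and FF mice carried the same Nf1 flox/flox alleles without Cre. The GFAP promoter drives Cre in astrocytes, so Nf1, which codes for the RAS regulator neurofibromin, is deleted in cells other than those that were sorted. There were 4 FFC libraries and 4 FF libraries, each with 2 from females and 2 from males. The labels call them biological replicates and do not say whether a library is 1 animal or a pool, so p-values here measure the spread between these libraries. The sample titles carry a month that is unevenly split between the genotypes: FFC 1, FF 1, FF 2 and FF 3 have November, and FFC 2, FFC 3, FFC 4 and FF 4 have December.

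A V segment is a short stretch of germline DNA that codes for most of the antigen-binding domain of an antibody. In developing B cells the RAG1 and RAG2 recombinase joins a V segment to a J segment (in the heavy chain to a D and a J segment), and the joined exon is transcribed with a downstream constant gene, such as Ighm or Igkc. Each B cell and its clonal descendants mostly keep 1 productive heavy chain and 1 productive light chain rearrangement. Plasma cells, the antibody-secreting descendants of B cells, hold very large amounts of these transcripts. Microglia are myeloid cells and are not known for rearranging these loci.

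The segments printed below are the 6 Ighv and 8 Igkv segments that had the highest value of their locus in at least 1 library, followed by Ighv1-80 and Igkv17-127, which had the smallest unadjusted p of each locus in the comparison of genotypes. They are shown because the results turn on which segment leads a library. Sequences are GENCODE M21 (GRCm38) transcripts, credited to that annotation, matched by symbol, which all 216 segments had. Each line gives the 3′ end of the germline V exon, 5′ to 3′ on the coding strand, the last 270 bases for 6 segments and the last 60 bases for the others. Capitals mark the 6 letters that code for tyrosine or phenylalanine followed by the conserved cysteine near the end of a V exon.
Ighv1-12: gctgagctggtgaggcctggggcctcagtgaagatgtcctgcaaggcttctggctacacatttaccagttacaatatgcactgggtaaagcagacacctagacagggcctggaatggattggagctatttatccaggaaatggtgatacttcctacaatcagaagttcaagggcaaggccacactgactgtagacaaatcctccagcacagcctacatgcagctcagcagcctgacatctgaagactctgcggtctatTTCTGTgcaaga
Ighv9-3: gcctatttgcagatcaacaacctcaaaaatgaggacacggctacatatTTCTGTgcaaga
Ighv6-3: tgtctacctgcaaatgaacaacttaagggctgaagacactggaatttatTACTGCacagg
Ighv1-15: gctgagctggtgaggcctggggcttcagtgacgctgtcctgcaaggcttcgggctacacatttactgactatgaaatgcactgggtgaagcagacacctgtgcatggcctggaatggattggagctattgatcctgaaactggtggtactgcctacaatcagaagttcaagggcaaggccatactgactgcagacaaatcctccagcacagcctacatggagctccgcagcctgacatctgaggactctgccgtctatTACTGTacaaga
Ighv1-67: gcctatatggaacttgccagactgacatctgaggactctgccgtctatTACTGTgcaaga
Ighv1-55: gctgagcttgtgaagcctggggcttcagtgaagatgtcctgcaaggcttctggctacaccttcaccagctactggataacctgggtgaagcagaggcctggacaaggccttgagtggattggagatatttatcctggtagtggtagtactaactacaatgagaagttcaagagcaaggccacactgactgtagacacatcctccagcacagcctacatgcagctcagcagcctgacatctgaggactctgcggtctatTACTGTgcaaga
Igkv4-63: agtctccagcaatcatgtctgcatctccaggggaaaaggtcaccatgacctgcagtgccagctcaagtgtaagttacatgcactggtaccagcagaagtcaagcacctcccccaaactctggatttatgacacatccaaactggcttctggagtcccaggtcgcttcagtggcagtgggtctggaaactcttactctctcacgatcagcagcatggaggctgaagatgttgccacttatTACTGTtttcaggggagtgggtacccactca
Igkv2-137: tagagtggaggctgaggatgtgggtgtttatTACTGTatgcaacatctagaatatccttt
Igkv3-5: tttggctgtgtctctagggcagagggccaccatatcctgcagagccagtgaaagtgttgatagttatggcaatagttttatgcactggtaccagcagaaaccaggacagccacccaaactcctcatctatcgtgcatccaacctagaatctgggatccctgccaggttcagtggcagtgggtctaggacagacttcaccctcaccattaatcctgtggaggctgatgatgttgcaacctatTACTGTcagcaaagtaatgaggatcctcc
Igkv4-53: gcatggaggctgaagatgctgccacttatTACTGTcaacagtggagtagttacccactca
Igkv4-61: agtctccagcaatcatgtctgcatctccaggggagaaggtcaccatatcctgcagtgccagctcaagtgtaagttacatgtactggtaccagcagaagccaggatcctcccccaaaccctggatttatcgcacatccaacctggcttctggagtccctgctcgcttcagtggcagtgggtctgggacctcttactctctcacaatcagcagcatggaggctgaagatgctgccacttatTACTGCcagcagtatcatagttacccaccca
Igkv4-72: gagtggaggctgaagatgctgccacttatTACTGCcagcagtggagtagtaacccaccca
Igkv11-125: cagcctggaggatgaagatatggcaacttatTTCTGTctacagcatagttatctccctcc
Igkv12-41: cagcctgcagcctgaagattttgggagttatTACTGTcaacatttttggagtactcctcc
Ighv1-80: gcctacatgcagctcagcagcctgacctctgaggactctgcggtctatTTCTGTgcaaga
Igkv17-127: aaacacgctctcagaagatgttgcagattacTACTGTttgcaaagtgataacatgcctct

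The motif had 8 spellings, searched on the coding strand alone within the last 60 bases, and an exon could hold more than 1 of them. TACTGT was in 79 Ighv and 46 Igkv exons, TACTGC in 9 Ighv and 30 Igkv, TTCTGT in 27 Ighv and 13 Igkv, and TTCTGC in 1 Ighv and 4 Igkv. Rarer spellings were TATTGT in 5 Ighv and 5 Igkv exons, TATTGC in 0 Ighv and 8 Igkv, TTTTGT in 1 Ighv and 3 Igkv, and TTTTGC in 1 Ighv and 7 Igkv. Any spelling was present in 97.3% of the Ighv exons and 97.1% of the Igkv exons, and in 22.3% of the last 60 bases of 1471 olfactory and vomeronasal receptor transcripts. TACTGT alone was present in 69.9% of Ighv and 44.7% of Igkv exons, and in 4.62% of those receptor transcripts. The leading heavy chain segments were related to different degrees. Over their last 270 bases, Ighv1-12 and Ighv1-15 were 88.9% identical, and Ighv1-12 and Ighv6-3 were 57.8% identical. Among the leading kappa segments, Igkv4-61 and Igkv4-72 were 94.1% identical, and Igkv3-5 and Igkv4-63 were 63.7% identical.

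Values are FPKM, fragment numbers scaled to transcript length and to the mapped fragments of the library, as the authors deposited them. The table gives no counts: depth is unknown, and the number of libraries limits the precision. An exact 0 in such a table can be a failed estimate, so a segment is said to be listed at 0. Summed over all genes the libraries held between 370978 and 704266 FPKM. Spearman correlations between libraries over the 17753 genes averaging 1 FPKM or more were 0.375 to 0.659. Nf1 itself was 56.2, 47.8, 47.7 and 98.3 FPKM in FFC libraries 1 to 4, against 27.4, 60.8, 65.2 and 25.5 FPKM in FF libraries 1 to 4, which says nothing about the deletion in astrocytes. The microglial markers Tmem119 and P2ry12 were at least 93.7 FPKM in every library. No segment had a missing value, and the lowest value above 0 of either locus in a library lay between 0.256 and 1.14 FPKM, so a segment at 1 FPKM is close to the smallest amount the table shows. A segment was called detected in a library at 1 FPKM or more.

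Immunoglobulin V segments held a large part of the summed FPKM of some of these microglial libraries. FPKM is scaled to transcript length, so a share of FPKM is not a share of fragments. Ighv and Igkv together held 1.92%, 0.760%, 6.45% and 0.471% of all FPKM in FFC libraries 1 to 4, against 10.7%, 3.83%, 1.65% and 1.59% in FF libraries 1 to 4. FF 1 and FFC 3 stood highest within their genotypes, and the ranges of the genotypes overlapped. In these bulk samples, fewer cells of a type and less RNA per cell cannot be told apart.

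The summed Ighv FPKM was 1567, 2142, 8577 and 1275 in FFC libraries 1 to 4, against 25729, 3355, 5081 and 3749 in FF libraries 1 to 4. On the scale of log2(sum + 1) the mean was 11.27 ± 1.24 in FFC and 12.64 ± 1.37 in FF (SD, n = 4 each), a difference of −1.37, close to 1 SD. FFC 3 lay above 3 of the FF libraries, so the genotypes overlapped. The summed Igkv FPKM was 8608, 2075, 27675 and 1818 in FFC libraries 1 to 4, against 49663, 11743, 4720 and 2147 in FF libraries 1 to 4. The mean of log2(sum + 1) was 12.42 ± 1.86 in FFC and 13.10 ± 1.95 in FF (SD, n = 4 each), a difference of −0.68 that is smaller than either SD. No p-value is given for these sums.

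Heavy and kappa segments did not keep a fixed proportion. The Igkv sum divided by the Ighv sum was 5.49, 0.969, 3.23 and 1.43 in FFC libraries 1 to 4, against 1.93, 3.5005, 0.929 and 0.573 in FF libraries 1 to 4. Kappa exceeded heavy in 5 libraries, 3 FFC and 2 FF. With the highest segment of each locus left out, the Igkv sum of FFC 1 was 1441 FPKM and its Ighv sum 1374 FPKM, so the excess of kappa over heavy in that library was mostly its leading kappa segment.

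The kappa constant gene Igkc, which every kappa transcript shares, was 4307, 2112, 36717 and 1688 FPKM in FFC libraries 1 to 4, against 42819, 8215, 8140 and 1214 FPKM in FF libraries 1 to 4. FF 1, FFC 3 and FF 2 were the highest 3 libraries both for Igkc and for the Igkv sum, in that order. Igkc divided by the Igkv sum stayed between 0.5004 and 1.33 in FFC libraries and between 0.566 and 1.72 in FF libraries. Ighm, the constant gene of IgM, was 110, 256, 229 and 342 FPKM in FFC libraries 1 to 4, against 689, 210, 184 and 246 FPKM in FF libraries 1 to 4. Ighm divided by the Ighv sum ran from 0.0267 to 0.268 in FFC libraries and from 0.0268 to 0.0657 in FF libraries. Ighm is only 1 of several heavy chain constant genes, so this ratio is not a counterpart of that of Igkc.

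**Figure D1:**
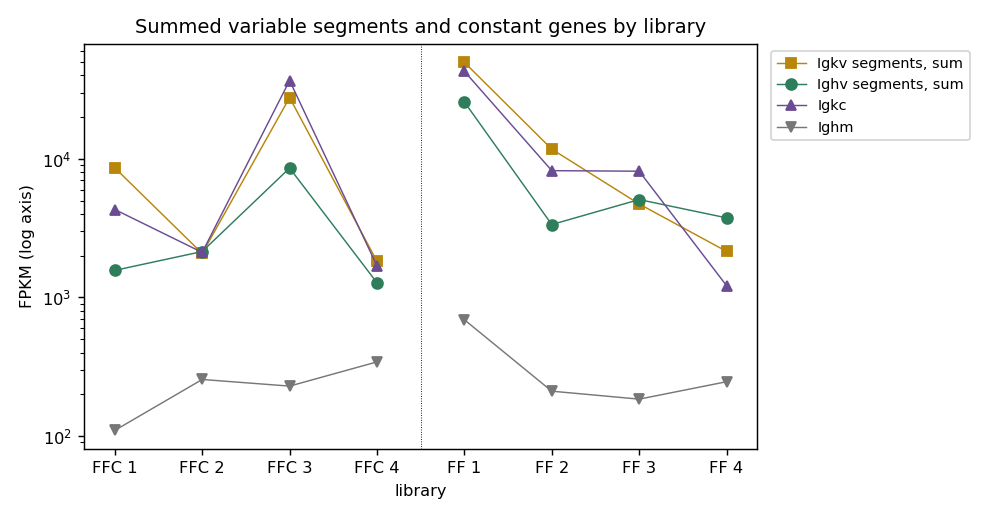
FPKM on a log axis for the summed Igkv segments, the summed Ighv segments, Igkc and Ighm in the 4 FFC libraries (left) and the 4 FF libraries (right); lines join libraries of a genotype only to guide the eye. Igkc runs close to the Igkv sum, with both highest in FFC 3 among FFC libraries (36717 and 27675 FPKM) and in FF 1 among FF libraries (42819 and 49663 FPKM), and Ighm lies far below the Ighv sum in every library.

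Each library was led by a few segments, and for the kappa locus by a different segment every time. The 8 libraries had 8 different leading Igkv segments and 6 different leading Ighv segments. Ighv1-12 led in FFC 1 and FFC 3, and Ighv1-55 led in FF 3 and FF 4. No Ighv segment that led an FFC library led an FF library.

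Among kappa segments, Igkv4-63 (mm9 chr6:69327938-69328223) gave 83.3% of the Igkv sum of FFC 1 with 7167 FPKM, and its highest value elsewhere was 249.7 FPKM in FF 3. Igkv3-5 (chr6:70613292-70613889) gave 54.0% of the Igkv sum of FFC 3 with 14931 FPKM, the highest value of any segment, and was at most 431 FPKM elsewhere. Igkv4-53 (chr6:69598818-69599109) led FFC 4 with 614 FPKM and 33.8% of the sum. Whether these leaders were high in other FFC libraries varied. Igkv4-63 was 4.93, 3.20 and 0 FPKM in FFC 2, FFC 3 and FFC 4, while Igkv4-53 was 215 FPKM in FFC 2 and listed at 0 in FFC 1 and FFC 3. Igkv2-137 (chr6:67505630-67506210) led FFC 2 with 668 FPKM and 32.2% of the sum, yet it was higher in FF 1, at 1704 FPKM.

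In the FF libraries, Igkv4-61 (chr6:69366889-69367172) led FF 1 with 10715 FPKM and 21.6% of the sum. Igkv4-72 (chr6:69176848-69177377) led FF 2 with 6118 FPKM and 52.1%, and Igkv12-41 (chr6:69808414-69808878) led FF 4 with 787 FPKM and 36.7%. Igkv11-125 (chr6:67863567-67864046) led FF 3 with 750.1 FPKM and 15.9%. Igkv11-125 was the most restricted leader: it was listed at 0 in all 4 FFC libraries and in FF 1, and reached 1.13 FPKM in FF 2 and 0.793 FPKM in FF 4.

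Among heavy chain segments, Ighv1-12 (mm9 chr12:115854061-115854354) was 193, 1.02, 3138 and 0 FPKM in FFC libraries 1 to 4, against 181, 255, 0 and 0 FPKM in FF libraries 1 to 4. It gave 12.3% of the Ighv sum of FFC 1 and 36.6% of that of FFC 3. Ighv6-3 (chr12:115629923-115630380) gave 57.7% of the sum of FFC 4 with 735 FPKM, and Ighv9-3 (chr12:115378903-115379333) gave 19.2% of that of FFC 2 with 411 FPKM. FFC 4 thus had the fewest heavy chain segments and the largest share in 1 of them.

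Ighv1-15 (chr12:115895567-115895988) led FF 1 with 6510 FPKM, 25.3% of the sum, and was at most 168 FPKM elsewhere. Ighv1-67 (chr12:116842151-116842444) led FF 2 with 814 FPKM and 24.3%. Ighv1-55 (chr12:116446306-116446738) led FF 3 with 707 FPKM and 13.9%, and FF 4 with 1390 FPKM and 37.1%.

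Taken over the genotypes, the share of the leading Igkv segment was 50.8% ± 23.8 in FFC and 31.6% ± 16.3 in FF, and that of the leading Ighv segment was 31.4% ± 20.2 in FFC and 25.1% ± 9.47 in FF (SD, n = 4 each). Both differences were smaller than the SD among FFC libraries. The number of Ighv segments needed to hold 50% of the sum was 7, 6, 2 and 1 in FFC libraries 1 to 4, against 3, 6, 6 and 3 in FF libraries 1 to 4. For Igkv it was 1, 3, 1 and 2 in FFC, against 5, 1, 5 and 2 in FF. The 3 leading Igkv segments held a larger share of their locus than the 3 leading Ighv segments in 6 libraries. The reverse held in FFC 4, with 64.1% for Igkv and 86.3% for Ighv, and in FF 1, with 42.5% for Igkv and 52.7% for Ighv.

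**Figure D2:**
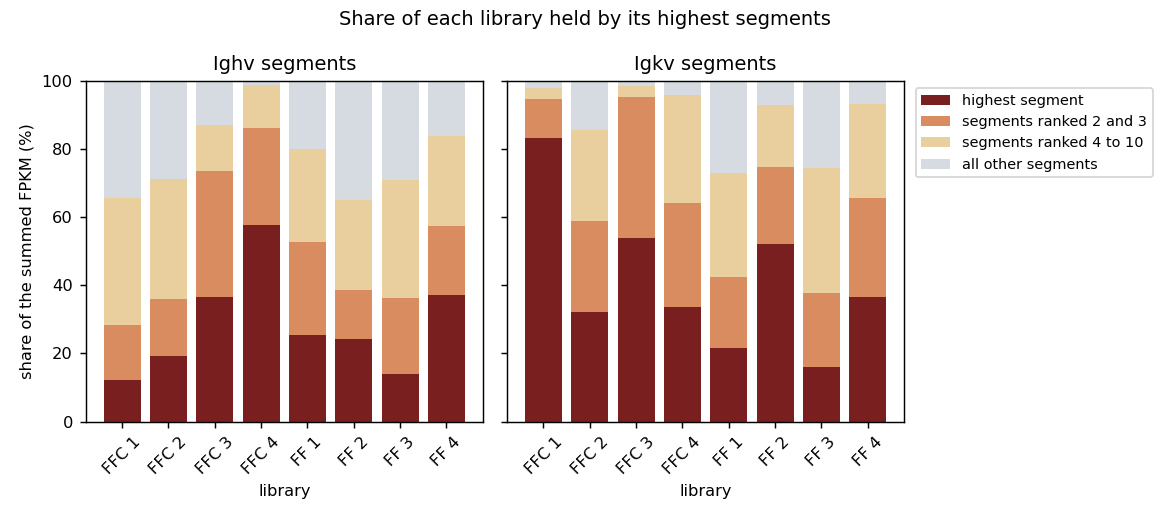
Share of the summed FPKM (%) held by the highest segment, the next 2, the next 7 and all other segments of Ighv (left) and Igkv (right), with FFC libraries left of FF libraries. The highest Igkv segment holds from 32.2% to 83.3% in FFC libraries and from 15.9% to 52.1% in FF libraries, and the 10 highest segments hold most of the sum everywhere.

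The number of detected segments differed less between libraries than the sums did. Of the 113 Ighv segments, 47, 52, 59 and 14 were detected in FFC libraries 1 to 4, against 58, 58, 53 and 39 in FF libraries 1 to 4. Of the 103 Igkv segments, 33, 39, 52 and 22 were detected in FFC, against 59, 54, 47 and 24 in FF. The means were 43.0 ± 19.9 in FFC and 52.0 ± 8.98 in FF for Ighv, and 36.5 ± 12.5 in FFC and 46.0 ± 15.5 in FF for Igkv (SD, n = 4 each). FFC 4 had the fewest detected segments of both loci and FF 4 the fewest of its genotype, and the genotypes overlapped. As shares, 12.4% to 52.2% of Ighv segments were detected in FFC and 34.5% to 51.3% in FF libraries. For Igkv the shares were 21.4% to 50.5% in FFC and 23.3% to 57.3% in FF. The olfactory and vomeronasal receptor genes had like shares, 20.2% to 50.6% in FFC and 31.8% to 54.7% in FF. FFC 4 was their lowest library as well, so its low count was not particular to V segments.

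Most segments were found in some libraries and missing from others. In no library at 1 FPKM or more were 11 Ighv and 9 Igkv segments, in exactly 1 library 13 of each, and in 6 or more libraries 24 Ighv and 14 Igkv. Only Ighv1-42 and Ighv8-8 reached 1 FPKM in all 8 libraries, and no Igkv segment did. The median segment of either locus was detected in 3 libraries. Ighv1-42 (chr12:116175324-116175617) was 1.16, 72.3, 8.30 and 2.51 FPKM in FFC libraries 1 to 4, against 7.96, 64.2, 7.30 and 123 FPKM in FF libraries 1 to 4. Ighv8-8 (chr12:116532289-116532709) was 16.8, 23.7, 2.56 and 23.0 FPKM in FFC, against 57.2, 9.44, 18.8 and 32.0 FPKM in FF. These 2 widely shared segments were of modest level and led no library.

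Other segments detected in 7 libraries could be high in some of them. Igkv1-110 (chr6:68220521-68221261) was 0, 94.2, 12.2 and 12.1 FPKM in FFC libraries 1 to 4, against 1836, 125, 307 and 1.39 FPKM in FF libraries 1 to 4. Ighv1-64 (chr12:116745756-116746188) was 29.4, 0, 56.8 and 123 FPKM in FFC, against 4238, 125, 60.01 and 1.64 FPKM in FF. Ighv8-12 (chr12:116886172-116886572) was 35.9, 4.13, 43.6 and 0 FPKM in FFC, against 743, 40.7, 251.0 and 4.95 FPKM in FF. All 3 were highest in FF 1. Ighv1-33 (chr12:116081862-116082154) was more even, with 35.1, 116, 6.91 and 0 FPKM in FFC, against 95.4, 28.9, 61.1 and 40.7 FPKM in FF. Igkv8-30 (chr6:70067055-70067611), detected in 6 libraries, was 19.0, 7.15, 7570 and 0 FPKM in FFC, against 929, 9.09, 0 and 46.1 FPKM in FF.

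A single library usually supplied most of what a segment had. For 79 Ighv and 91 Igkv segments, more than 50% of the FPKM summed over the 8 libraries came from 1 library, and for 28 Ighv and 38 Igkv segments the highest library was FF 1. In FFC libraries alone 13 Ighv and 9 Igkv segments reached 1 FPKM, in FF libraries alone 17 Ighv and 15 Igkv, and in both genotypes 72 Ighv and 70 Igkv.

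**Figure D3:**
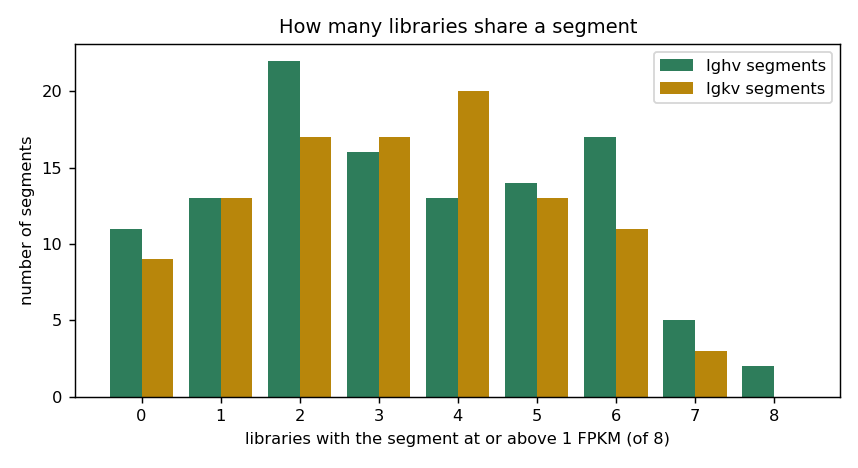
Number of Ighv and Igkv segments (vertical axis) by the number of libraries, of 8, in which the segment was at 1 FPKM or more. Both distributions are broad, with 2 Ighv segments and no Igkv segment in all 8 libraries and 11 Ighv and 9 Igkv segments in none.

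Which segments were detected was shared in part between libraries. FFC 1 and FFC 3 shared 34 Ighv segments, which were 72.3% of the FFC 1 list and 57.6% of the FFC 3 list, and 22 Igkv segments, 66.7% of the FFC 1 list and 42.3% of the FFC 3 list. FF 1 and FF 3 shared 39 Ighv segments, 67.2% of the FF 1 list and 73.6% of the FF 3 list, and 36 Igkv segments, 61.0% of the FF 1 list and 76.6% of the FF 3 list. Across genotypes, FFC 3 and FF 3 shared 37 Ighv segments, 62.7% of the FFC 3 list and 69.8% of the FF 3 list. FFC 4 shared the fewest, with 4 Ighv segments in common with FF 4, 28.6% of the FFC 4 list and 10.3% of the FF 4 list.

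As a share of the segments detected in either library, the median pair overlapped by 26.5% between FFC libraries, 38.1% between an FFC and an FF library and 45.5% between FF libraries for Ighv. For Igkv the medians were 26.4%, 31.0% and 36.0% for the same 3 kinds of pair. The medians between FFC libraries rested on FFC 4, which is in 3 of their 6 pairs. Without FFC 4, an alternative added after seeing the data, they were 44.2% for Ighv and 33.8% for Igkv, and without FFC 1, FFC 2 or FFC 3 in turn they were 14.1%, 17.3% and 17.3% for Ighv and 17.5%, 19.6% and 19.6% for Igkv. The ranges were wide, from 8.16% to 49.3% between genotypes for Ighv, and the pairs share libraries, so the medians are descriptive. Of the 10 highest Ighv segments, the median pair had 2 in common within FFC and 2 within FF. Spearman correlations of the segments' FPKM between pairs of libraries, over the 113 Ighv segments, ran from −0.02 to 0.44, and over the 103 Igkv segments from −0.17 to 0.46.

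V segments fall into families by sequence, named by the first number in the symbol. Family Ighv1, the largest, has 56 of the 113 Ighv segments, 49.6%. It gave 45.6%, 48.4%, 73.5% and 20.2% of the Ighv sum in FFC libraries 1 to 4, against 85.7%, 73.1%, 55.0% and 81.8% in FF libraries 1 to 4. FFC 3 lay within the FF range and the other 3 FFC libraries below it. Family Igkv4 has 26 of the 103 Igkv segments, 25.2%, and gave 88.4%, 17.4%, 14.6% and 63.4% of the Igkv sum in FFC, against 35.7%, 66.0%, 13.8% and 8.09% in FF. In FFC 4 the family Ighv6 gave 57.7% of the heavy chain sum from 2 segments, almost all of it Ighv6-3.

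The FPKM also moved along the loci from library to library. The segments of each locus were divided into 4 bins of like size by distance from the constant gene. In the heavy chain locus the second bin, 646 to 1235 kb from Ighm, held 32.2%, 35.5%, 57.5% and 61.6% of the sum in FFC libraries 1 to 4, against 32.8%, 19.9%, 11.9% and 4.85% in FF libraries 1 to 4. It was the bin with the largest share in each FFC library. It holds Ighv9-3, Ighv1-12, Ighv6-3 and Ighv1-15, the leaders of the 4 FFC libraries and FF 1, so the shares restate those leaders in part. The fourth bin, farthest from Ighm, held 25.7%, 14.9%, 13.8% and 12.8% in FFC, against 41.5%, 44.5%, 30.6% and 15.8% in FF. In the kappa locus, the bin nearest to Igkc held 81.8% in FFC 3, where Igkv3-5 led, and 1.02% in FFC 1, and between 6.26% and 24.2% in FF libraries.

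**Figure D4:**
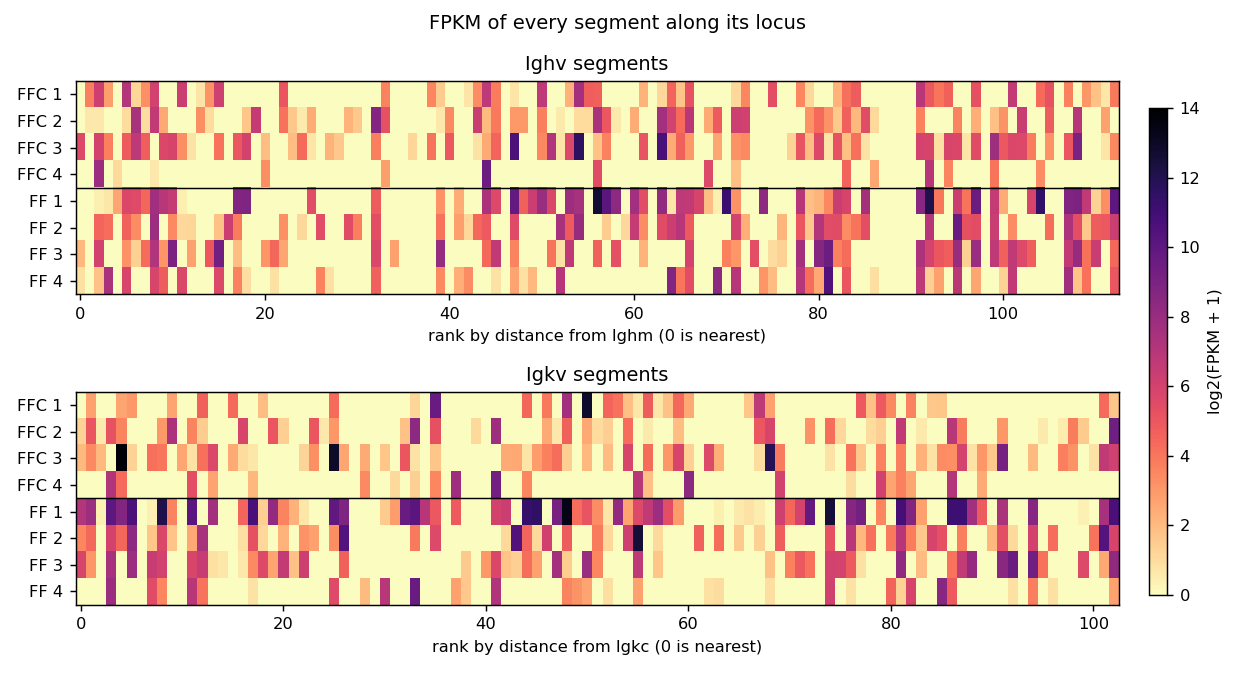
log2(FPKM + 1) of all 113 Ighv (top) and 103 Igkv segments (bottom) in the 4 FFC libraries above the 4 FF libraries, with segments ordered by distance from Ighm or Igkc. Each library shows its own scattered set of dark cells, FFC 4 has the emptiest rows (14 Ighv and 22 Igkv segments at 1 FPKM or more), and FF 1 the darkest.

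D and J segments were present as rows but had no signal. All 20 Ighd, 4 Ighj and 5 Igkj rows were listed at 0 in every library. In GENCODE M21, 10 Ighv and 8 Igkv segments are pseudogenes. Pseudogenes gave 11.98%, 12.4%, 2.06% and 0% of the Ighv sum in FFC libraries 1 to 4, against 0.379%, 5.49%, 5.78% and 15.3% in FF libraries 1 to 4. For Igkv they gave at most 0.363% in FFC, against 0.198%, 12.5%, 0.0772% and 17.8% in FF libraries 1 to 4.

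Many segments have a close copy, and the sources used here do not state how reads were divided between copies, so single-segment values are uncertain where copies are near-identical. Over the last 270 bases, the nearest relative was at least 95% identical for 60 of 113 Ighv segments and for 38 of 102 Igkv segments compared. Ighv1-62-2 and Ighv1-71 were identical, and both were listed at 0 in every library. The values of near-identical pairs still differed widely. Igkv3-5 and Igkv3-10 were 98.1% identical, and Igkv3-10 was 17.2 FPKM in FFC 3, where Igkv3-5 was 14931 FPKM. Ighv1-15 and Ighv1-23 were likewise 98.1% identical, at 6510 and 42.7 FPKM in FF 1. Igkv17-127 and Igkv17-121 were 97.8% identical, and both were high in FF 1 and FF 3.

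The comparison between genotypes asks whether sorted microglia from optic nerves with Nf1-deficient astrocytes differ from those of FF mice. It was made with limma on log2(FPKM + 1) over the 17753 genes that averaged 1 FPKM or more, of which 175 were segments, 91 Ighv and 84 Igkv. The other 41 segments were not tested. No gene had a Benjamini-Hochberg adjusted p under 0.05, 0% of all genes tested and 0 of the 175 segments, and 1146 genes had an unadjusted limma p under 0.05. The smallest adjusted p was 0.382, and it belonged to a segment, Igkv17-127.

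Segments nevertheless lay lower in FFC more often than the genes tested did as a whole. The mean log2(FPKM + 1) was lower in FFC for 124 of 175 segments, 70.9%, against 43.3% of all genes tested, and higher for 51, 29.1%, against 56.7% of all genes. The median difference, FFC minus FF, was −1.01 for Ighv, −1.34 for Igkv and −1.21 for both, against 0.19 over all genes tested. At an unadjusted limma p under 0.05 there were 30 segments, 17.1%, where 6.46% of all genes tested passed. Of these, 26 were lower in FFC, 14.9% against 1.94% of all genes, and 4 were higher, 2.29% against 4.52% of all genes. Without the filter on mean FPKM, 15 of 216 segments were lower at that p, 6.94% against 1.51% of 37000 genes, and 2 were higher, 0.926% against 3.06%. With the month in the titles as a covariate, 16 of 175 were lower, 9.14% against 3.13% of all genes tested, and 8 were higher, 4.57% against 5.34%. Every FFC library lay below every FF library for 7 segments, 4.0% against 1.29% of all genes, and every FFC library above every FF library for 0 segments, against 3.05% of all genes. All 7 were listed at 0 in FFC 4, the library with the fewest detected segments. The shares without overlap were not taken without the filter. A filter on mean FPKM keeps segments through the libraries where they are high, so the values without it also matter. Over all 216 segments, 136 were lower in FFC, 63.0% against 40.4% of 37000 genes. Another 62 were higher, 28.7% against 42.0% of those genes, and 18 were equal. The median difference was −0.77, against 0 over the 37000 genes. The olfactory and vomeronasal receptor genes came close to the segments in the share lower, 60.8%. Their share higher was 37.4%, and their median difference of −0.25 was smaller than the −0.77 of the segments.

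The size of this shift rested in part on single libraries and on the month in the titles. Without FF 1 the median difference over the tested segments was −0.72, and without FFC 4, the library with the fewest detected segments, it was −0.93. With the month as a covariate it was −0.81. With both FF 1 and FFC 3 left out it was −1.20, and upper-quartile scaling, which brought the median of all genes to 0.00, gave −1.25. Within the November libraries, log2(sum + 1) was 10.61 in the 1 FFC library and averaged 12.89 in the 3 FF libraries for Ighv, and was 13.07 in FFC against 13.77 in FF for Igkv. Within the December libraries it averaged 11.48 in the 3 FFC libraries against 11.87 in the 1 FF library for Ighv, and 12.20 in FFC against 11.07 in FF for Igkv. The Igkv difference thus had opposite directions in the 2 months, and each month holds 1 library of a genotype, so these differences were not tested.

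The segments that separated the genotypes were listed at 0 or low in FFC and varied widely among FF libraries. Igkv17-127 (chr6:67811153-67811653) was 0, 0, 3.06 and 0 FPKM in FFC libraries 1 to 4, against 376, 62.5, 674 and 12.4 FPKM in FF libraries 1 to 4. The groups did not overlap, and the log2 difference was −6.42 ± 1.12 (SE; limma adjusted p = 0.382). Ighv1-80 (chr12:117150555-117150987) was 11.7, 0, 30.8 and 0 FPKM in FFC, against 454, 156, 96.4 and 215 FPKM in FF. Its groups were also apart, with a log2 difference of −5.46 ± 1.08 (SE; limma adjusted p = 0.396).

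Ighv1-55, the leader of FF 3 and FF 4, was 0, 7.71, 0.698 and 0 FPKM in FFC libraries 1 to 4, against 9.99, 42.9, 707 and 1390 FPKM in FF libraries 1 to 4. Every FFC value lay below every FF value, but FFC 2 and FF 1 were close. The log2 difference was −6.24 ± 1.36 (SE; limma adjusted p = 0.496). Ighv1-67, the leader of FF 2, was 0, 10.9, 54.1 and 0 FPKM in FFC, against 78.9, 814, 255 and 112 FPKM in FF, with a log2 difference of −5.37 ± 1.22 (SE; limma adjusted p = 0.496). None of these 4 segments passed the threshold.

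Igkv10-96, Ighv3-6 and Ighv1-85 complete the 7 segments without overlap and are named after their values were seen. Igkv10-96 (chr6:68581957-68582424) was 0, 17.6, 0.709 and 0 FPKM in FFC libraries 1 to 4, against 6047, 37.7, 63.7 and 68.5 FPKM in FF libraries 1 to 4. Ighv3-6 (chr12:115526363-115526793) was 1.88, 0.530, 0 and 0 FPKM in FFC, against 8.30, 16.002, 271 and 9.59 FPKM in FF. Ighv1-85 (chr12:117238239-117238672), the Ighv segment farthest from Ighm, was 13.97, 0, 10.1 and 0 FPKM in FFC, against 1019, 75.6, 19.9 and 31.7 FPKM in FF. In each of these 3 segments 1 FF library was far above the rest, FF 1 for Igkv10-96 and Ighv1-85 and FF 3 for Ighv3-6. With 4 libraries against 4, the exact two-sided permutation test over 70 arrangements gives 0.0286 for any segment whose groups do not overlap, which is the smallest p it can give.

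In the other direction the genotypes overlapped for every segment. Ighv7-3 (chr12:115391395-115391855) was 11.5, 38.4, 0 and 6.03 FPKM in FFC libraries 1 to 4 and was listed at 0 in all 4 FF libraries (limma adjusted p = 0.712). Igkv16-104 (chr6:68375599-68376066) was 28.3, 1.63, 11.6 and 67.9 FPKM in FFC, against 10.6, 0, 0 and 0 FPKM in FF, with a log2 difference of 3.12 ± 1.14 (SE; limma adjusted p = 0.712). Igkv4-91 (chr6:68718562-68719097) was 5.47, 56.5, 3836 and 0 FPKM in FFC, against 0, 0, 2.48 and 0.862 FPKM in FF, with a log2 difference of 4.44 ± 1.87 (SE; limma adjusted p = 0.735). FFC 3 alone supplied nearly all of the Igkv4-91 signal.

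The segments of highest mean FPKM in each locus overlapped between the genotypes, with errors close to or above their differences. Igkv3-5 was 5.19, 10.9, 14931 and 19.1 FPKM in FFC libraries 1 to 4, against 431, 21.3, 0 and 0 FPKM in FF libraries 1 to 4, a log2 difference of 2.79 ± 2.32 (SE; limma adjusted p = 0.759). Ighv1-15 was 23.9, 168, 2.47 and 44.8 FPKM in FFC, against 6510, 0, 23.9 and 0 FPKM in FF, a log2 difference of 0.51 ± 2.23 (SE; limma adjusted p = 0.962). For Ighv1-15 the mean FPKM was far higher in FF and the mean log2 value slightly higher in FFC, because 2 FF libraries were listed at 0.

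**Figure D5:**
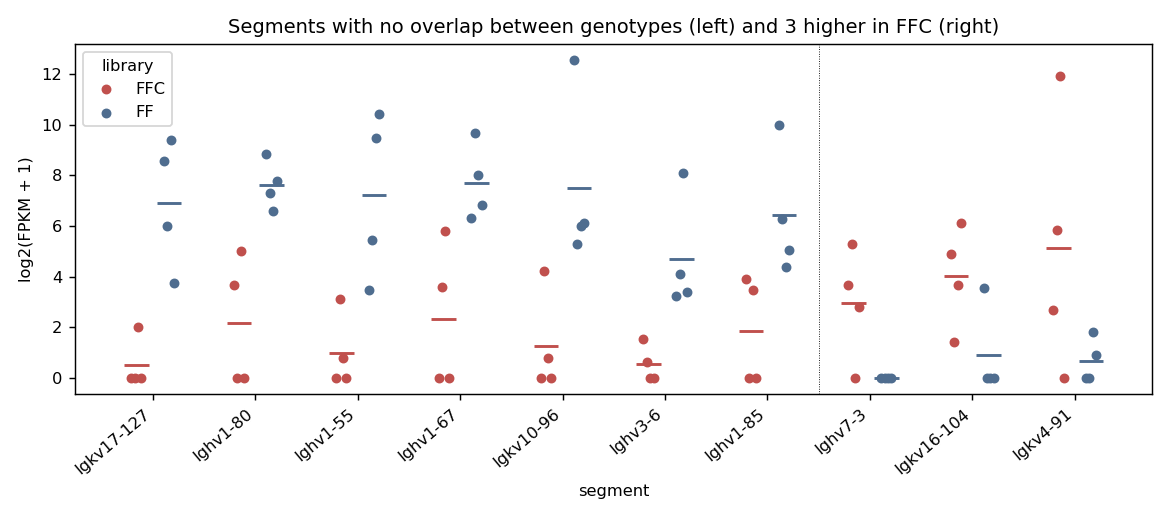
log2(FPKM + 1) in each FFC library and each FF library for the 7 segments in which every FFC library lay below every FF library (left of the dotted line) and for the 3 segments with the smallest p among those higher in FFC (right); bars are means of 4. Most FFC points of the 7 sit at or near 0, and FF points spread over several log2 units, as for Igkv17-127 from 12.4 to 674 FPKM.

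Other genes of B cells and plasma cells were measured beside the segments. The 10 B cell markers summed to 39.5 to 89.4 FPKM in FFC libraries and to 9.01 to 241 FPKM in FF libraries. Of the 6 tested 0 passed in limma, 2 being higher and 4 lower in FFC. At an unadjusted limma p under 0.05 there was 1 of the 6, where 6.46% of all genes tested passed. Ebf1, a transcription factor of early B cells, was 3.94, 0.264, 0.374 and 0 FPKM in FFC libraries 1 to 4, against 147, 1.71, 0.271 and 20.2 FPKM in FF libraries 1 to 4. It was highest in FF 1 and next in FF 4, and it was low in FFC 3, which had the second highest V segment sum. Pax5, the B cell identity factor, was at most 0.402 FPKM in FFC and 0.384 FPKM in FF, and the kinase gene Blk was listed at 0 in 4 libraries and was at most 0.0572 FPKM. Cd79b, a signalling subunit of the B cell receptor, was 29.1, 38.5, 22.4 and 68.5 FPKM in FFC, against 34.6, 2.06, 60.6 and 1.23 FPKM in FF, and made up much of the list's sum.

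Igj, the joining chain of secreted IgM and IgA made by plasma cells, was 3.52, 1.03, 21.3 and 0.0490 FPKM in FFC libraries 1 to 4, against 10.5, 1.28, 1.65 and 0.180 FPKM in FF libraries 1 to 4. Its 2 highest libraries, FFC 3 and FF 1, were those with the highest V segment sums. The plasma cell list held 8 symbols, of which Igj and Jchain name the same gene, and 6 were in the table used here. These 6 genes summed to 63.5 to 158 FPKM in FFC and 42.2 to 149 FPKM in FF. Xbp1, which many secretory cells express, was the highest of them in every library but FF 1. In FF 1 Prdm1 was higher, at 76.5 FPKM against 58.9 FPKM for Xbp1. Sdc1, a surface marker of plasma cells, was listed at 0 in 5 libraries and was 1.06 FPKM in FFC 3, with at most 0.0370 FPKM in FF. Tnfrsf17 and Irf4 of the same list were instead highest in FFC 4, the library with the lowest V segment sum. Tnfrsf17 was 52.8 FPKM there and was listed at 0 in FFC 3 and FF 1. Irf4 was 7.27 FPKM in FFC 4, against 4.71 FPKM in FFC 3 and 3.25 FPKM in FF 1. Of the 5 tested genes 0 passed in limma, 4 being higher and 1 lower in FFC. An unadjusted limma p under 0.05 was found for 0 of the 5, against 6.46% of all genes tested.

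Of the 12 constant region genes listed, 9 were in the table used here, and Ighd, Igha and Iglc1 were not among them. All 8 tested were lower in FFC, where 43.3% of all genes tested were lower. Their median log2 difference was −1.46, against 0.19 over all genes tested. Of these 8 genes 0 passed in limma, and 2 had an unadjusted limma p under 0.05, as did 6.46% of all genes tested. Ighg1, the constant gene of IgG1, was 0, 3.40, 6.91 and 4.89 FPKM in FFC libraries 1 to 4, against 208, 8.64, 22.8 and 10.6 FPKM in FF libraries 1 to 4. Every FFC library lay below every FF library for Ighg1, as for 1.29% of all genes tested. Its log2 difference was −2.85 ± 1.05 (SE; limma adjusted p = 0.712). Ighg2b was 6.08, 3.34, 6.66 and 4.79 FPKM in FFC, against 131, 9.85, 130 and 6.35 FPKM in FF, so FFC 3 lay just above FF 4. Iglc2, a lambda light chain constant gene, was above 0 in FFC 3 alone among FFC libraries, at 9.70 FPKM, against 27.8, 4.08, 2.46 and 0.580 FPKM in FF.

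The recombination genes Rag1, Rag2 and Dntt did not all peak in the same library. Rag2 was 52.1, 2.01, 0.257 and 0 FPKM in FFC libraries 1 to 4, against 7.75, 0.108, 2.59 and 0.634 FPKM in FF libraries 1 to 4. Rag1 was 0.0817, 0.346, 0.0935 and 3.26 FPKM in FFC, against 6.20, 0.453, 3.16 and 3.75 FPKM in FF. Dntt was 0.518, 1.27, 0 and 2.09 FPKM in FFC, against 6.85, 1.49, 0 and 1.64 FPKM in FF. Rag1 and Dntt were thus highest in FF 1, as was the V segment sum, and Rag2 was highest in FFC 1. In FFC 3, which had the next highest V segment sum, all 3 were below 1 FPKM. The 6 T cell markers summed to 6.89 to 51.6 FPKM in FFC and 23.3 to 141 FPKM in FF, with 1 tested gene higher and 5 lower in FFC. The 3 recombination genes had 1 higher and 2 lower, and the 5 microglial markers 4 higher and 1 lower. In limma 0 genes of these 3 lists passed. An unadjusted limma p under 0.05 was found for 1 of the 6 T cell genes, against 6.46% of all genes tested. That gene was Lck, which was lower in FFC. The part of B cells, plasma cells or T cells in the V segment values was not tested.

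Row families of a similar kind were measured in the same way. The 135 T cell receptor V segments summed to between 234 and 315 FPKM in FFC libraries, against 377 to 4266 FPKM in FF libraries. Every FFC sum of these segments lay below every FF sum, and the highest was again FF 1. Without a filter, 66 of the 135 were lower in FFC, 41 higher and 28 equal, with a median difference of 0. The 3 Iglv rows, the lambda light chain V segments, summed to 8.07 to 75.2 FPKM in FFC and 1.19 to 282 FPKM in FF. The 1574 olfactory and vomeronasal receptor genes without a missing value, which are known for their use in sensory neurons of the nose, held 1.55%, 1.18%, 1.23% and 0.701% of the FPKM in FFC libraries 1 to 4, against 1.61%, 4.20%, 1.46% and 3.47% in FF libraries 1 to 4. Of these receptors 957 were lower in FFC and 588 higher, 60.8% and 37.4%, with a median difference of −0.25. Their leading gene held at most 5.53% of their sum in FFC and 5.19% in FF. The leading T cell receptor V segment held 23.6% ± 10.8 of its sum in FFC and 27.7% ± 9.71 in FF (SD, n = 4 each), beside means of 31.4% in FFC and 25.1% in FF for the leading Ighv segment.

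Genes averaging 1 FPKM or more were also ranked by how alike their FPKM ran over the 8 libraries. Most like Ighv1-15, the Ighv segment of highest mean, were Lpar5 and Tnks1bp1, each with a Spearman coefficient of 0.994, and Gm17104 with 0.976. Lpar5, a lysophosphatidic acid receptor gene, was 34.0, 50.4, 10.2 and 36.2 FPKM in FFC libraries 1 to 4, against 123, 1.06, 31.4 and 0.894 FPKM in FF libraries 1 to 4. For Igkv3-5, the Igkv segment of highest mean, they were Clp1 with 0.994 and 9930021J03Rik and Gpn2 with 0.970 each. Clp1, a gene for an RNA kinase, was 3.00, 7.37, 16.4 and 8.76 FPKM in FFC, against 12.02, 9.59, 0.613 and 0.0775 FPKM in FF. With 8 libraries and 17753 genes ranked, these are descriptions, and none of the 6 genes is an immunoglobulin gene.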

How the data were processed

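RNA from sorted cells was amplified to cDNA with the Ovation method and sequenced as Illumina paired-end libraries, per the labels' protocols. The mm9 build, Cufflinks 2.0.2, TopHat2 2.0.4, Bowtie2 2.0.0 and CASAVA 1.8.2 are listed, without a role or order, per the submitters' processing notes. The authors deposited 1 table of FPKM per gene, normalized for transcript length and library size. Amplification of small inputs and the assignment of reads to near-identical segments can both affect FPKM of single segments. The files' starts count from 0 and are given from 1 here.

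Genes with a missing value (447) were left out of tests, and no library was imputed. log2(FPKM + 1) was fitted with limma 3.58.1 in R 4.3.3 (trended empirical Bayes, tests two-sided, p-values adjusted by Benjamini-Hochberg over the 17753 genes averaging 1 FPKM or more, threshold 0.05). Adding 1 makes changes of low genes look smaller than they are. Sums, shares and counts of segments are descriptions with no test.

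Named segments are the leader of each locus in each library, up to 6 segments per locus detected in at least 6 libraries, the 3 with the smallest p in each direction and 3 genes ranked most like the segment of highest mean. Marker lists hold genes of B cells, plasma cells, immunoglobulin constants, recombination, T cells and microglia. The segments, lists and tests were chosen with earlier results of these data known. Alternatives were other pseudocounts, filters and scalings, sex, month or replicate number in the fit, and leaving out libraries. Figures were drawn with matplotlib 3.10.9.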

Additional observations from a re-analysis of the deposited data

Results flagged for a closer look

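Across the named segments, and the sum, detected number and leading share of each locus, 70 groups of 4 libraries were checked for 1 library far from the other 3. Of the values checked, 8 stood apart, all of them of single segments. Chance flags about 1 in 20 groups, a rate that does not apply to segments named partly for being high in 1 library, so the number of flags is no result. Among FFC libraries, Igkv3-5 was 14931 FPKM in FFC 3, Igkv12-41 was 338 FPKM in FFC 2 and Igkv4-72 was 119.5 FPKM in FFC 4, each far above the other 3. Igkv17-127 was 3.06 FPKM in FFC 3 and listed at 0 in the other FFC libraries. Ighv8-8 was 2.56 FPKM in FFC 3, below the other FFC libraries, whose lowest value was 16.8 FPKM. Among FF libraries, Igkv10-96 was 6047 FPKM in FF 1, Igkv16-104 was 10.6 FPKM in FF 1 and listed at 0 elsewhere, and Igkv11-125 was 750.1 FPKM in FF 3. These values belong to 7 Igkv segments and 1 Ighv segment, and FFC 3 holds 3 of the 8.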

How the results depend on the processing

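The count of genes passing the threshold was 0 under every planned setting that kept all libraries, and 0 to 2 when 1 library at a time was left out. With FF 1 and FFC 3 both left out, an alternative added after seeing the data, 3 genes passed and 0 segments. The count of segments passing was 0 to 2 over single left-out libraries. Without FF 4 the 2 were Igkv17-127 and Igkv3-7, with a smallest adjusted p of 0.0425 in limma, where the range of that smallest value over the other settings was 0.0911 to 0.806. Over single left-out libraries, the FFC minus FF difference in log2(sum + 1) ran from −1.97 to −0.70 for Ighv and from −1.46 to 0.15 for Igkv. The difference in detected segments ran from −14.3 to 0.667 for Ighv and from −16.8 to −4.67 for Igkv. The difference in the leading segment's share ran from −2.45 to 12.7 percentage points for Ighv and from 8.42 to 26.1 for Igkv. In an alternative added after seeing the data, the median share of detected segments in common between FFC libraries ran from 14.1% to 44.2% for Ighv and from 17.5% to 33.8% for Igkv, and the median number in common from 9 to 34 Ighv and from 9 to 22 Igkv segments. Between FF libraries the median number of Igkv segments in common ran from 16 to 35.

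Libraries with the same replicate number did not deviate together (correlations of −0.0406, 0.0344, −0.00926 and −0.0516), so the numbers do not pair them. With the replicate block, 0 genes passed and the smallest adjusted p in limma was 0.562. In that fit 44 segments had an unadjusted limma p under 0.05, 36 lower and 8 higher in FFC, against 30 without it. The share of all genes tested under that p was not taken for this fit, so the larger count is no result about segments.

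Of the comparisons of named segments with an alternative, 437 kept their direction and their side of the threshold, 1 newly passed and 25 turned the direction. With a pseudocount of 5, Ighv1-15 was −0.33 and Igkv4-53 was 0.071 on the log2 scale. With month in the fit, Igkv8-30 was −0.17. Without FF 1 and FFC 3, Ighv8-8 was 0.21, Igkv4-53 was 1.38, Igkv4-61 was 0.83 and Igkv8-30 was −0.51. Over single left-out libraries, the log2 difference ran from −1.01 to 2.87 for Ighv1-12, from −0.93 to 3.29 for Ighv1-15 and from −0.42 to 2.10 for Ighv6-3. It ran from −2.13 to 0.96 for Igkv4-53, from −3.83 to 0.15 for Igkv4-61, from −2.40 to 1.87 for Igkv4-63 and from −2.24 to 2.09 for Igkv8-30. The 7 segments without overlap kept their direction in all settings run. The cause of these changes was not tested. Depth is unknown, near-identical copies may exchange reads, and genotype and title month are unevenly crossed.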
